A study of Homo sapiens with 6 samples.

Results

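The genes described here are 35 genes of glycolysis and of the cellular response to low oxygen, listed by symbol. The rule uses no measured value, but the members were chosen with earlier results of these data known. All 35 had a row among the 19503 named genes of the table, and 34 reached the level needed for testing (1 FPKM or more in at least 2 libraries; 10851 genes in all did). They fall into 17 glycolytic enzymes (lactate dehydrogenases included), 3 genes that move or gate the carbon (SLC2A1, SLC16A3 and PDK1) and 15 other hypoxia genes. RNA was sequenced from HLE, an undifferentiated human hepatocellular carcinoma line, after lentiviral delivery of a short hairpin RNA (shRNA). The 3 groups were cells with a control shRNA (control), with an shRNA against a first coding site of the zinc-finger transcription factor ZNF281 (kd.1) and with an shRNA against another coding site (kd.2). All groups, control included, received virus at 10 infectious units per cell (the multiplicity of infection) and then puromycin over 7 days of selection, and each line gave 2 libraries. Each group is therefore 1 selected line, and the duplicates of a line need not be separate cultures, so the p-values measure the spread between libraries only, which may be technical. In such bulk RNA, fewer cells of a type and less RNA per cell cannot be told apart.

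Glycolysis splits glucose into pyruvate, which lactate dehydrogenase turns into lactate or which pyruvate dehydrogenase passes to the mitochondria. Many of its genes, and genes for blood vessel growth, acid handling, mitophagy and collagen modification, are switched on by hypoxia-inducible factor (HIF). The HIF alpha subunit is made all the time and is destroyed in the presence of oxygen after prolyl hydroxylases of the EGLN family mark it for the VHL ubiquitin ligase, so its activity is set largely at the protein level, which was not measured here. Liver cancer cells commonly use the isozymes of glycolysis that are not typical of the mature hepatocyte.

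The unit is FPKM, a read level corrected for gene length and library depth. Their sum lay between 512672.6 and 575886.9 per library, highest in control replicate 2, and the absolute sequencing depth is unknown. Duplicates differed most in the control, where the log2 differences over genes had an SD of 0.245, against 0.147 for kd.1 and 0.137 for kd.2. ZNF281 itself stood at 9.52 and 8.43 FPKM in the control libraries, at 4.35 and 4.71 in kd.1 and at 4.37 and 4.47 in kd.2. All 4 knockdown libraries lay below both controls (limma adjusted p = 0.000249 in kd.1 and 0.000241 in kd.2). Of 9 hepatocyte markers with a row in the table, 7 stayed under 0.2 FPKM in every library (APOA1, APOA2, TTR, FGB, TF, CYP3A4 and ASGR1). The other hepatocyte markers were SERPINA1, at 1.88 to 3.17 FPKM, and HNF4A, at 0.45 to 1.2 FPKM. Leukocyte and endothelial markers summed to at most 1.75 and 3.07 FPKM in any library. The fibroblast list summed to between 231.62 and 302.12 FPKM, nearly all from LUM and DCN, with COL1A2 and PDGFRA under 0.2. DCN rose in kd.1 (log2 change 0.34, limma adjusted p = 0.011) and fell in kd.2 (-0.93, adjusted p = 0.000137), COL1A1 rose in kd.1 (0.98, adjusted p = 0.00443) and the endothelial marker CDH5 fell in each line (-1.32 and -1.38, adjusted p = 0.00371 and 0.00264). COL1A1 and CDH5 reached 1 FPKM only in 2 or 3 libraries, mainly those of the higher group. The part of these genes in the results below was not tested.

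The main enzymes of glycolysis were among the most abundant of the 35 transcripts. GAPDH, which oxidises glyceraldehyde phosphate, stood at 4899 and 5701 FPKM in the control libraries. ENO1, PKM, LDHA, ALDOA and LDHB followed, with control means of 2045 ± 101 (SD, n = 2), 1648 ± 19, 1645 ± 36, 1372 ± 109 and 1115 ± 58 FPKM; PKM and LDHA differed by less than the spread between the duplicates. The lowest step was hexokinase, which traps glucose in the cell: HK1 and HK2 stood at 11.2 ± 1.4 and 10.99 ± 2.1 FPKM and could not be ordered. Of the hypoxia genes, DDIT4 and HIF1A were the highest at 230 ± 10 and 141 ± 25 FPKM. The membrane carbonic anhydrases, well-known markers of hypoxic tumour cells, were low: CA9 stood at 1.30 ± 0.03 FPKM in the control, and CA12 lay between 0.08 and 0.25 FPKM over the 6 libraries and was not tested. The enzyme transcripts together made up 2.77% and 2.78% of the FPKM of all named genes in the control libraries, 2.79% and 2.73% in kd.1 and 2.90% and 2.95% in kd.2. PKLR, the pyruvate kinase gene of mature hepatocytes, and SLC2A2, their glucose transporter, were near the floor, with group means of at most 0.05 FPKM.

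**Figure D1:**
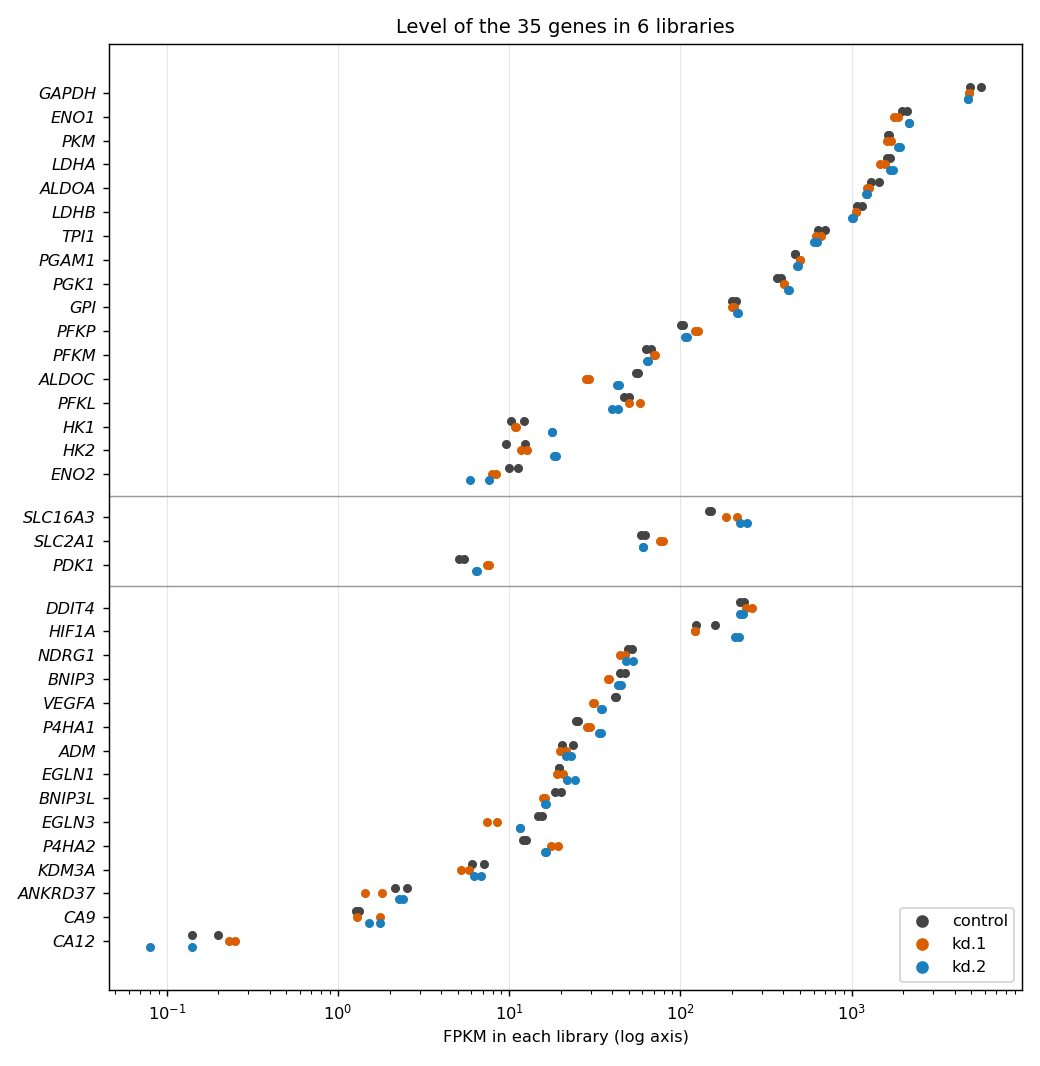
FPKM (log axis) of each of the 35 genes, 1 row per gene and 1 point per library, with control in grey, kd.1 in orange and kd.2 in blue; lines separate the 17 enzymes, the 3 transport and pyruvate genes and the 15 other hypoxia genes. Levels run from under 1 FPKM (CA12) to 5701 FPKM (GAPDH). The groups separate visibly only in some rows, such as ALDOC, EGLN3, P4HA2 and SLC16A3, and in HK1 and HIF1A it is kd.2 that stands apart.

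The HIF complex is known to bind the DNA letters ACGTG or GCGTG, and promoters of the genes were searched for these letters on both strands. The window ran from 250 bases before to 50 bases after the start (RefSeq, GRCh38.p14), and 32 of the 35 genes matched (not NDRG1, BNIP3L and VEGFA). ACGTG was found in 14 of the 32 windows (43.8%), in 8 of 17 enzymes, 0 of 3 transport and pyruvate genes and 6 of 12 other hypoxia genes. It was found in 21.6% of 27305 promoters overall and in 27.6% of the 8455 promoters of tested genes. GCGTG was found in 46.9% of the members, 36.3% of all promoters and 52.3% of those of tested genes. The stretches below hold the ACGTG matches upstream of the start for 6 genes, chosen because their transcripts went in different directions. ACGTG on either strand is in capitals; CACGTG reads the same on both strands and counts as 2 overlapping matches, and it is also the core letter string of the E-box.
ALDOC: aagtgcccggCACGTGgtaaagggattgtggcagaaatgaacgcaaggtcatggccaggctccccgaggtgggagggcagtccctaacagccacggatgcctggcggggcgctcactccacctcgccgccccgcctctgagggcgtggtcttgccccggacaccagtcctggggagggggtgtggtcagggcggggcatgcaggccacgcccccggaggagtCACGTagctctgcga
LDHA: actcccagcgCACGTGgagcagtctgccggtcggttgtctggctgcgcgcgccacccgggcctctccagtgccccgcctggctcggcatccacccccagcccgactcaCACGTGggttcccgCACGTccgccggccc
ANKRD37: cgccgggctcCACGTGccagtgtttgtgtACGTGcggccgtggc
BNIP3: gcacgcgccgCACGTGccacacgcac
HK2: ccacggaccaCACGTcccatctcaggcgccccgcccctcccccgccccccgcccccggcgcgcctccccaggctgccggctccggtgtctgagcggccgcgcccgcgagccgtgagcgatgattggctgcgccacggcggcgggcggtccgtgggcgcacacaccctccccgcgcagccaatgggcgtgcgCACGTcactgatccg
P4HA1: tgatcgagctCACGTagcgagggct

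These stretches lie at chr17:28576909-28577145 (ALDOC, minus strand), chr11:18394368-18394504 (LDHA, plus), chr4:185396669-185396712 (ANKRD37, plus), chr10:131982042-131982067 (BNIP3, minus), chr2:74833888-74834093 (HK2, plus) and chr10:73096938-73096962 (P4HA1, minus). ALDOC and ANKRD37 hold 3 matches each, LDHA 5, BNIP3 and HK2 2 each and P4HA1 1. As described below, ALDOC fell in each line, ANKRD37 and BNIP3 fell in kd.1, HK2 rose in kd.2 and P4HA1 rose in each line. LDHA was called in neither line with the reported scaling. Of the 14 genes with ACGTG, 1 rose and 4 fell in kd.1, and 3 rose and 2 fell in kd.2. Of the 18 without it (17 of them tested), 5 rose and 1 fell in each line. Some of these 18 hold GCGTG, ENO1, HIF1A and SLC2A1 among them, so they are not a group without either string. Over all tested genes 15.8% rose and 13.4% fell in kd.1, and 15.7% rose and 22.2% fell in kd.2. These shares were not split by the string, so the small counts above tie no direction to it. A match is a string of letters and no test of binding was made.

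Each knockdown line was set against the control with limma on log2(FPKM + 0.1), and calls used an adjusted p (Benjamini-Hochberg, over all 10851 tested genes) below 0.05. In kd.1, 6 of the 34 tested members rose and 7 fell, where 15.8% of all tested genes rose and 13.4% fell. In kd.2, 8 members rose and 5 fell, where 15.7% of all genes rose and 22.2% fell. In all, 38.2% of the members were called in each line. The median log2 change of the members was -0.05 in kd.1 and 0.01 in kd.2, beside 0.02 and -0.03 over all tested genes. Both comparisons use the same control libraries. For the mean of both lines against control, 8 members rose and 6 fell, with 16.1% and 18.6% of all genes. The balance of directions depended on the scaling. With a common FPKM sum, 7 members rose and 3 fell in kd.1 (1889 and 848 of all genes, against 1712 and 1454 as reported), and 11 rose and 3 fell in kd.2 (2121 and 1345, against 1705 and 2405). For the mean of both lines it gave 11 and 4 members. With quantile normalization 14 members rose and 5 fell in kd.2 (2171 and 2035 of all genes), and with equal medians 5 rose and 7 fell in kd.1 (1362 and 1723). The counts also rested on single libraries. The count in kd.1 dropped without either kd.1 library, and those in kd.2 and for the mean dropped without either kd.2 library. Calls over all tested genes dropped in each of these fits too, so the loss was not particular to the members.

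**Figure D2:**
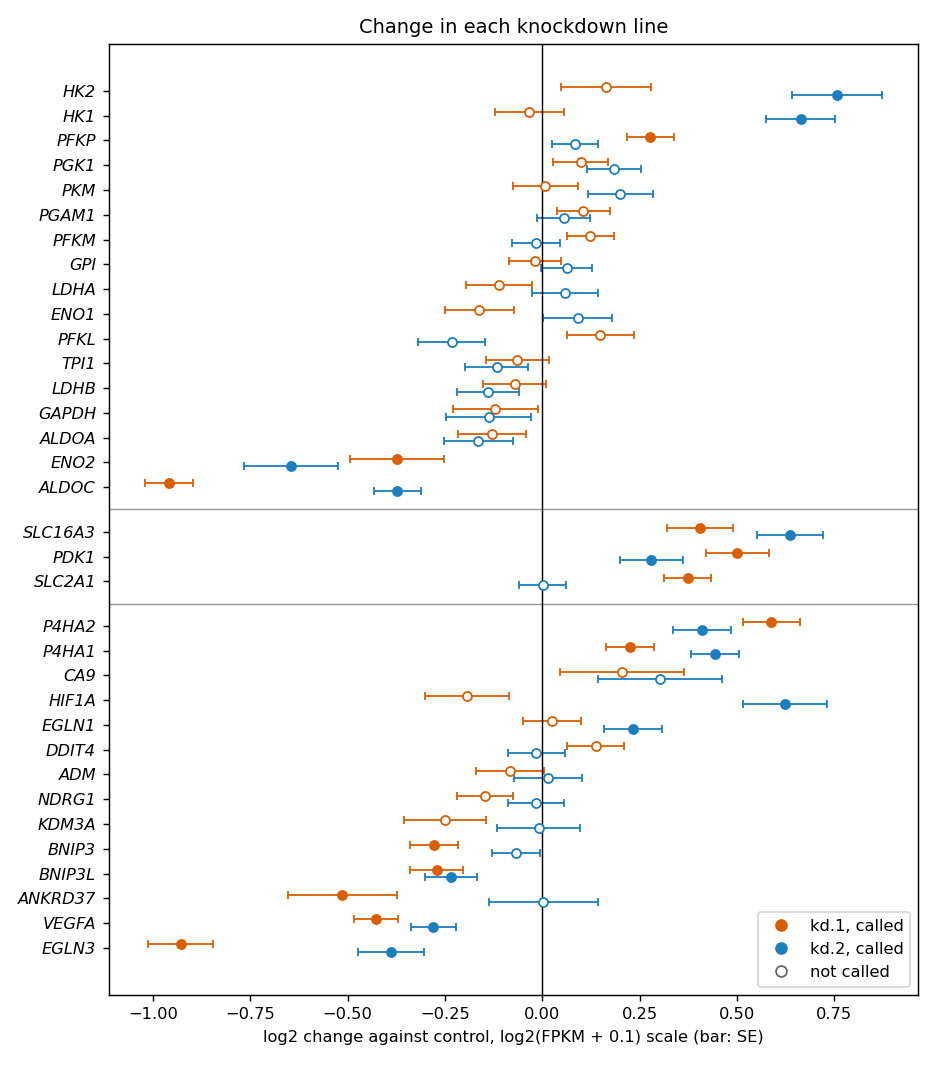
Log2 change against control of the 34 tested genes in kd.1 (orange) and kd.2 (blue), with bars for the SE; filled points passed the adjusted p threshold and open points did not. Among the enzymes most points lie within 0.25 of 0 and ALDOC, ENO2, HK1 and HK2 stand out; SLC16A3, PDK1, P4HA1 and P4HA2 lie to the right in each line, and EGLN3 and VEGFA to the left.

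Among the enzymes, 12 of 17 were called in neither line, and the 5 called in a line were ALDOC, ENO2, HK1, HK2 and PFKP. Over all tested genes 29.2% were called in kd.1 and 37.9% in kd.2, and 6.46% rose and 6.42% fell in both lines. The share of all genes called in neither line was not counted, so the 12 cannot be set against it. ALDOC, the aldolase isozyme best known from brain (gene ID 230; GRCh38, chromosome 17, 28573115 to 28577264, minus strand), stood at 54.9 and 56.7 FPKM in the control, 27.9 and 29.4 in kd.1 and 42.5 and 43.8 in kd.2. All 4 knockdown libraries were below both controls, and kd.1 was below kd.2. ALDOC fell by 0.96 ± 0.06 (SE) on the log2 scale in the kd.1 line (limma adjusted p = 3.97e-05) and by 0.37 ± 0.06 in the kd.2 line (adjusted p = 0.0028). ALDOA, the main aldolase, stood at 1295 and 1449 FPKM in the control, 1274 and 1232 in kd.1 and 1211 and 1235 in kd.2 and was not called (adjusted p = 0.295 and 0.168), though without control replicate 1 it was (log2 change -0.21 and -0.25, adjusted p = 0.00801 and 0.00326). The ALDOC share of aldolase FPKM was accordingly 4.07% and 3.76% in the control, 2.15% and 2.33% in kd.1 and 3.39% and 3.42% in kd.2.

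ENO2, the neuronal-type enolase (chromosome 12, 6913745 to 6923698, plus strand), stood at 10.0 and 11.2 FPKM in the control, 7.95 and 8.38 in kd.1 and 5.94 and 7.65 in kd.2. The groups did not overlap. It fell by 0.65 ± 0.12 on the log2 scale in kd.2 (limma adjusted p = 0.00466) and by 0.37 ± 0.12 in kd.1 (adjusted p = 0.0464). The kd.1 call was lost without control replicate 2 or either kd.1 library. With a common FPKM sum (adjusted p = 0.112), no filter on level (0.0908) or limma without trend and robust moderation (0.0697) it was lost too. ENO1, which supplied over 99% of enolase FPKM in every library, was not called in either line (adjusted p = 0.199 and 0.435).

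Both hexokinases rose in kd.2 and were not called in kd.1 with all libraries. HK1 (chromosome 10, 69269984 to 69401884, plus strand) stood at 12.2 and 10.2 FPKM in the control, 10.96 and 10.8 in kd.1 and 17.7 and 17.7 in kd.2. HK2 (chromosome 2, 74833981 to 74893359, plus strand), the isozyme commonly raised in tumours, stood at 12.4 and 9.54 in the control, 11.8 and 12.7 in kd.1 and 18.2 and 18.8 in kd.2. For each gene both kd.2 libraries were above the other 4, while kd.1 overlapped the control. HK1 rose 1.58-fold in kd.2 (log2 change 0.66 ± 0.09, limma adjusted p = 0.00117) and HK2 1.69-fold (0.76 ± 0.12, adjusted p = 0.00208). In kd.1 the adjusted p was 0.804 for HK1 and 0.306 for HK2, but without control replicate 1 HK2 was called there too (log2 change 0.35, adjusted p = 0.00343). The HK2 share of their sum stayed between 48.3% and 54.0% over the 6 libraries.

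Phosphofructokinase, the committed step, has 3 isozyme genes here. PFKP, the platelet-type isozyme and the most abundant of the 3 (chromosome 10, 3066333 to 3137712, plus strand), stood at 101 and 103 FPKM in the control, 122 and 126 in kd.1 and 107 and 110 in kd.2. Both lines were above the control, and PFKP rose in kd.1 (log2 change 0.28 ± 0.06, limma adjusted p = 0.0104) but was not called in kd.2 (0.08 ± 0.06, adjusted p = 0.288). The kd.1 call was lost without kd.1 replicate 1 (0.0601) or kd.1 replicate 2 (0.113). PFKL, the liver-type isozyme, stood at 50.4 and 47.1 in the control, 50.1 and 58.3 in kd.1 and 39.7 and 43.2 in kd.2, and was called in neither line (adjusted p = 0.218 and 0.0606). PFKM, the muscle type, lay between 63.0 and 71.2 FPKM throughout and was not called.

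The abundant enzymes of the later steps moved little. The log2 changes of the 12 enzymes called in neither line ran from -0.16 (ENO1) to 0.15 (PFKL) in kd.1 and from -0.23 (PFKL) to 0.20 (PKM) in kd.2, with SEs of up to 0.11. GAPDH, often used as a reference gene, stood at 4845 and 4879 FPKM in kd.1 and 4785 and 4824 in kd.2, below both controls, with log2 changes of -0.12 ± 0.11 and -0.14 ± 0.11 (limma adjusted p = 0.426 and 0.337). Without control replicate 1 GAPDH was called in each line, at -0.23 and -0.25 (adjusted p = 0.00556 and 0.0033). PKM, pyruvate kinase, stood at 1635 and 1662 in the control, 1704 and 1613 in kd.1 and 1875 and 1915 in kd.2. PGK1, which makes the first ATP of the pathway, stood at 388 and 366 in the control, 402 and 405 in kd.1 and 433 and 424 in kd.2. Neither was called in kd.2 (adjusted p = 0.0879 and 0.0654), but with a common FPKM sum PKM, PGK1 and ENO1 were called there, with log2 changes of 0.30 (adjusted p = 0.00742), 0.28 (0.0176) and 0.19 (0.0315), and with quantile normalization also (adjusted p = 0.0116, 0.0132 and 0.0106). At the reported scaling PKM was called in kd.2 without either control library (adjusted p = 0.0161 without replicate 1, 0.0153 without replicate 2), and so was PGK1 (0.00313 and 0.0388). Whether these transcripts were called in kd.2 thus depended on the scaling and on the control libraries. With quantile normalization LDHA was called in kd.2 as well (log2 change 0.24, limma adjusted p = 0.0329). PGAM1 was then called in each line, with a log2 change of 0.19 (adjusted p = 0.0434 in kd.1 and 0.0366 in kd.2). Leaving out control replicate 1 also gave calls for PFKM (0.17), PGK1 (0.14) and ENO1 (-0.21) in kd.1 and for TPI1 (-0.18) and LDHB (-0.19) in kd.2. LDHA, the lactate-forming subunit, took 60.1% and 59.1% of lactate dehydrogenase FPKM in the control, 59.8% and 58.1% in kd.1 and 63.0% and 62.7% in kd.2; with 2 libraries a group, an exact permutation test of such a share could not reach 0.05. The counting of reads from processed copies is not stated, and the annotation used here (GENCODE 29) names 62 pseudogenes for GAPDH and 13 for PGAM1, so these levels are uncertain.

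Of the genes that carry glucose in, lactate out and pyruvate away from the mitochondria, all 3 rose in kd.1, and SLC16A3 and PDK1 rose in kd.2. SLC16A3, the lactate exporter of glycolytic cells (chromosome 17, 82228397 to 82261129, plus strand), stood at 152 and 148 FPKM in the control, 185 and 213 in kd.1 and 222 and 244 in kd.2. All 4 knockdown libraries were above both controls. SLC16A3 rose 1.32-fold in kd.1 (log2 change 0.41 ± 0.08, limma adjusted p = 0.00874) and 1.55-fold in kd.2 (0.64 ± 0.08, adjusted p = 0.00109); the kd.1 call was lost without kd.1 replicate 2 (0.0909). SLC16A3 overlaps CSNK1D on the opposite strand, and whether reads were counted by strand is not given in the sources used here.

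PDK1, a kinase that switches off pyruvate dehydrogenase (chromosome 2, 172555373 to 172608669, plus strand), stood at 5.47 and 5.09 FPKM in the control, 7.61 and 7.41 in kd.1 and 6.50 and 6.36 in kd.2. The 3 groups did not overlap, with kd.1 highest. PDK1 rose in kd.1 (log2 change 0.50 ± 0.08, limma adjusted p = 0.00298) and also in the kd.2 line (0.28 ± 0.08, adjusted p = 0.0266). The kd.2 call was lost without any 1 of the 4 knockdown libraries, and in a fit of only the 2 groups compared (limma adjusted p = 0.0602).

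SLC2A1, the basal glucose importer (chromosome 1, 42925375 to 42959176, minus strand), stood at 61.8 and 58.5 FPKM in the control, 79.5 and 76.5 in kd.1 and 60.1 and 60.3 in kd.2. Only kd.1 was apart from the control, with a log2 change of 0.37 ± 0.06 (limma adjusted p = 0.00292), while that in kd.2 was 0.00 ± 0.06 (adjusted p = 0.983).

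HIF1A, the oxygen-regulated alpha subunit of HIF (gene ID 3091; chromosome 14, 61695513 to 61748259, plus strand), stood at 159 and 123 FPKM in the control, 122 and 122 in kd.1 and 220 and 210 in kd.2. The control libraries differed from each other by more than those of either line, and both kd.2 libraries were above them. HIF1A rose 1.54-fold in kd.2 (log2 change 0.62 ± 0.11, limma adjusted p = 0.00349) and was -0.19 ± 0.11 from control in kd.1 (adjusted p = 0.209). Without control replicate 2 the change in kd.1 was -0.38 and was called (adjusted p = 0.00084). The kd.2 call held under each of the 16 alternative settings tried that gave a value.

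Of the oxygen-sensing hydroxylases, themselves known HIF targets, EGLN3 fell in each line and EGLN1 rose in kd.2. EGLN3 (chromosome 14, 33924231 to 34462774, minus strand) stood at 14.8 and 15.5 FPKM in the control, 8.47 and 7.40 in kd.1 and 11.5 and 11.6 in kd.2. The 3 groups did not overlap, and kd.1 was lowest. EGLN3 fell by 0.93 ± 0.08 on the log2 scale in the kd.1 line (limma adjusted p = 0.00018) and by 0.39 ± 0.08 in the kd.2 line (adjusted p = 0.00848); the kd.2 call was lost without kd.2 replicate 1 (0.074) or kd.2 replicate 2 (0.0636). EGLN1, the main oxygen sensor, stood at 19.5 and 19.6 in the control, 20.7 and 19.1 in kd.1 and 24.2 and 21.8 in kd.2. EGLN1 rose in kd.2 by a log2 change of 0.23 ± 0.08 (limma adjusted p = 0.0393), a call lost without any 1 of the 4 knockdown libraries. No filter on level (adjusted p = 0.0757), limma without trend and robust moderation (0.064) and a fit of only the 2 groups compared (0.0604) also lost it.

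Several other genes commonly used as hypoxia markers fell. VEGFA, the main angiogenic growth factor (chromosome 6, 43770184 to 43786487, plus strand), stood at 41.7 and 42.2 FPKM in the control, 31.2 and 31.1 in kd.1 and 34.7 and 34.3 in kd.2. The groups did not overlap, with duplicates close together. VEGFA fell by 0.43 ± 0.06 on the log2 scale in kd.1 (limma adjusted p = 0.00121) and by 0.28 ± 0.06 for kd.2 (adjusted p = 0.007). The kd.2 call was lost without kd.2 replicate 1 (0.0683) or 2 (0.0744) and with a common FPKM sum (0.0761).

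BNIP3 and BNIP3L are related mitophagy receptors of the outer mitochondrial membrane. BNIP3 stood at 44.7 and 47.3 FPKM in the control, 37.6 and 38.3 in kd.1 and 44.7 and 43.1 in kd.2; it fell in kd.1 and was not called in kd.2 (log2 change -0.28 ± 0.06, limma adjusted p = 0.0118; -0.07 ± 0.06 and 0.411 in kd.2). Leaving out kd.1 replicate 1 (0.0951) or kd.1 replicate 2 (0.0734), or using a common FPKM sum (0.054), ended this call. The annotation names 39 BNIP3 pseudogenes, so its level is uncertain. BNIP3L (chromosome 8, 26382898 to 26505636, plus strand) stood at 20.0 and 18.6 in the control, 16.1 and 15.8 in kd.1 and 16.5 and 16.3 in kd.2, with log2 changes of -0.27 ± 0.07 (adjusted p = 0.0188) and -0.23 ± 0.07 (0.0262). Each BNIP3L call was lost without any 1 of the 4 knockdown libraries, in the order kd.1 replicate 1, kd.1 replicate 2, kd.2 replicate 1, kd.2 replicate 2. The adjusted p was then 0.0957, 0.132, 0.0528 and 0.0526 for the change in kd.1, and 0.0559, 0.0556, 0.129 and 0.152 for that in kd.2. With a common FPKM sum the BNIP3L adjusted p was 0.152 and 0.286. In a fit of only the 2 groups compared it was 0.0522 in kd.1 and 0.0553 in kd.2, and with no filter on level 0.0508 in kd.2. ANKRD37, an ankyrin-repeat gene, was low at 2.52 and 2.16 FPKM in the control, 1.80 and 1.43 in kd.1 and 2.41 and 2.27 in kd.2. It fell in kd.1 (log2 change -0.51 ± 0.14, limma adjusted p = 0.0261), a call lost without control replicate 1, kd.1 replicate 2 or either kd.2 library. The call was also lost with a common FPKM sum (adjusted p = 0.0723), with no filter on level (0.0536) and in a fit of only the 2 groups compared (0.059).

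The catalytic subunits of collagen prolyl 4-hydroxylase, the enzyme that stabilises the collagen helix, rose. P4HA2 (chromosome 5, 132191838 to 132295315, minus strand) stood at 12.0 and 12.5 FPKM in the control, 17.5 and 19.4 in kd.1 and 16.2 and 16.4 in kd.2. P4HA1 (chromosome 10, 73007217 to 73096974, minus strand) stood at 25.1 and 24.6, 28.4 and 29.8, and 34.4 and 33.3 in the same order. All 4 knockdown libraries were above both controls for each gene, with kd.1 highest for P4HA2 and kd.2 highest for P4HA1. P4HA2 rose 1.504-fold and 1.33-fold (log2 change 0.59 ± 0.07 and 0.41 ± 0.07, limma adjusted p = 0.000886 and 0.00405). P4HA1 rose 1.17-fold and 1.36-fold (0.23 ± 0.06 and 0.44 ± 0.06, adjusted p = 0.0264 and 0.00133). The P4HA1 call in kd.1 was lost without any 1 of the 4 knockdown libraries. It was also lost with equal medians (limma adjusted p = 0.0606), no filter on level (0.0521) and a fit of only the 2 groups compared (0.0695). P4HA2, ANKRD37 and BNIP3L also overlap genes on the opposite strand that have rows in the table (PDLIM4 and SLC22A4, UFSP2, and PNMA2).

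Another 5 tested hypoxia genes were called in neither line, a class that was not counted over all tested genes. ADM, a vasodilator peptide, lay between 19.9 and 23.7 FPKM over the 6 libraries with all groups overlapping. NDRG1, a stress-response gene, lay between 44.5 and 52.8. DDIT4, an inhibitor of mTOR signalling, lay between 222 and 264 FPKM, and KDM3A, a histone demethylase, between 5.22 and 7.10. CA9 lay between 1.28 and 1.76. Their log2 changes ran from -0.25 (KDM3A) to 0.21 (CA9) in kd.1 and from -0.02 (NDRG1) to 0.30 (CA9) in kd.2, and the smallest adjusted p was 0.108 and 0.161. The SE of CA9 was 0.16, so a change of that size was not detectable at this level. Of these genes 4 were called under another setting: KDM3A in kd.1 without control replicate 2 (-0.36, limma adjusted p = 0.0233), ADM in kd.1 without control replicate 1 (-0.19, 0.0485), DDIT4 in kd.1 with a common FPKM sum (0.22, 0.0407) or quantile normalization (0.20, 0.0459), and CA9 in kd.2 with quantile normalization (0.47, 0.0425).

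**Figure D3:**
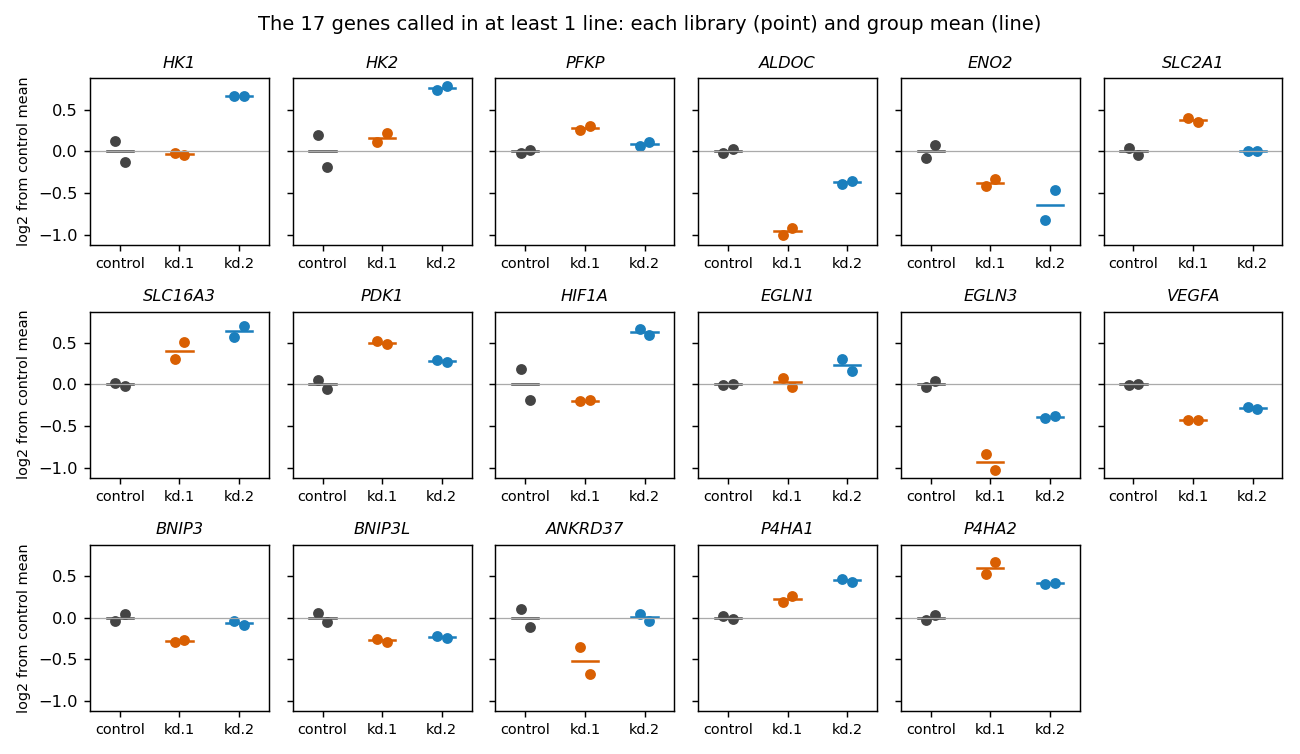
Log2(FPKM + 0.1) of the 17 genes called in at least 1 line, relative to the control mean: 1 point per library, a line at each group mean, control in grey, kd.1 in orange and kd.2 in blue. HK1, HK2 and HIF1A are high in kd.2, SLC2A1 in kd.1, and ALDOC and EGLN3 are lowest in kd.1 with kd.2 between kd.1 and control.

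The glycolytic enzymes were then set beside the non-glycolytic hypoxia genes. In kd.1, 1 of 17 enzymes rose and 2 fell, and 2 of 14 tested hypoxia genes rose and 5 fell. In kd.2, 2 enzymes rose and 2 fell, and 4 hypoxia genes rose and 3 fell. Thus 3 and 4 of 17 enzymes were called, against 7 and 7 of 14 hypoxia genes, where 29.2% and 37.9% of all tested genes were called in either direction. The lower share of enzymes called depended on control replicate 1. Without it more enzymes were called in each line, ALDOA and GAPDH among them, as given above. More of all tested genes were called in that fit as well, so the gain was not particular to the enzymes. Among the hypoxia genes, ADM was then added and ANKRD37 lost in kd.1. The median log2 change of the enzymes was -0.03 in kd.1 and 0.06 in kd.2, and that of the hypoxia genes was -0.17 and 0.00 (-0.0028 before rounding), beside 0.02 and -0.03 over all tested genes. Enzymes minus hypoxia genes gave 0.14 in kd.1 and 0.06 in kd.2, with a pooled SD of 0.03 between duplicates for this difference. That SD leaves out the spread between genes and so does not measure whether the gene groups differ. In kd.1 the changes ran from -0.96 to 0.28 over the enzymes and from -0.93 to 0.59 over the hypoxia genes. For the mean of both lines the difference was 0.03, below the value in either line. Measured from the control mean, the difference was 0.141 and 0.146 in the kd.1 libraries, 0.0087 and 0.0454 in the kd.2 libraries and -0.0304 and 0.0304 in the control libraries. The kd.1 libraries were above the controls and the kd.2 libraries overlapped them. Leaving out control replicate 1 gave 0.06 in kd.1 and turned the value in kd.2 to -0.03, and leaving out control replicate 2 gave 0.20 in kd.1. Without kd.2 replicate 2 the value in kd.2 was 0.0087. This is a description of genes chosen by name, with no test of the groups. The 3 transport and pyruvate genes had a median of 0.41 in kd.1 and 0.28 in kd.2, and 3 and 2 of them rose.

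**Figure D4:**
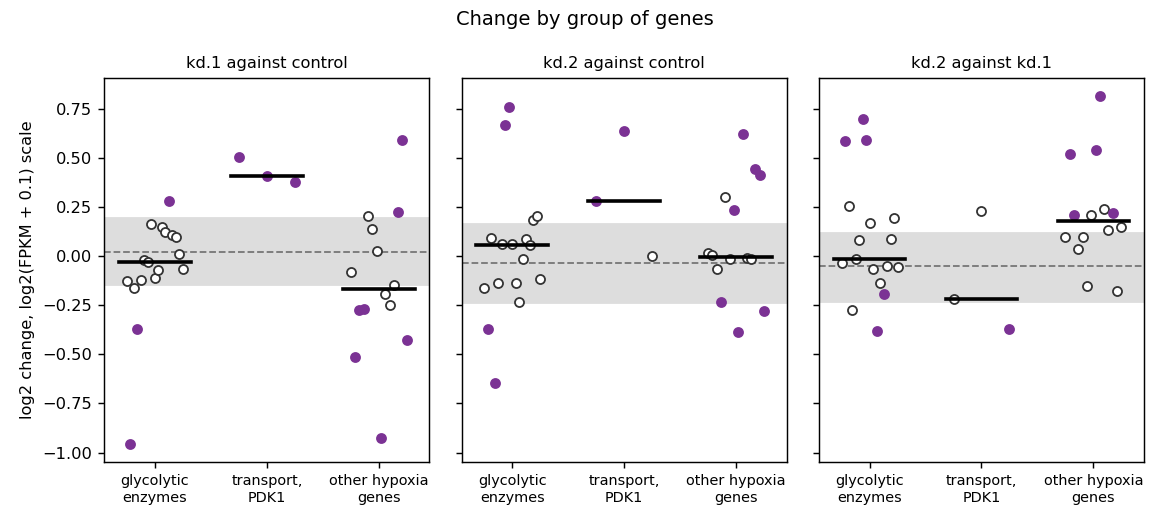
Log2 change of each tested gene in 3 comparisons, by group; filled points were called, black lines are group medians, the dashed line is the median of all 10851 tested genes and the grey band their middle 50%. Most enzymes lie in the band, the transport and pyruvate genes lie above it in kd.1, and the hypoxia genes spread to both sides, with a median of -0.17 in kd.1 and of 0.18 for kd.2 against kd.1.

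A direct comparison of kd.2 with kd.1 tested whether the lines differed. Of the 34 tested members 8 were higher in kd.2 and 3 lower, where 11.9% of all tested genes were higher and 20.3% lower. With equal medians 11 members were higher and 2 lower, with 1691 and 1728 of all genes, and with quantile normalization 11 and 3, with 1747 and 1774 of all genes. The largest difference was in HIF1A, 0.81 ± 0.11 on the log2 scale (limma adjusted p = 0.000838), followed by HK1 at 0.70 ± 0.09 (0.000713), HK2 at 0.59 ± 0.12 (0.00532), ALDOC at 0.59 ± 0.06 (0.00026), EGLN3 at 0.54 ± 0.08 (0.00178) and ANKRD37 at 0.52 ± 0.14 (0.0223). HIF1A and the hexokinases had risen in kd.2, whereas ALDOC and EGLN3 had fallen less there than in kd.1. P4HA1 and BNIP3 were also higher in kd.2, at 0.22 and 0.21. SLC2A1 was lower in kd.2 by a log2 difference of -0.37 ± 0.06 (adjusted p = 0.00225), as were PFKL (-0.38 ± 0.09, adjusted p = 0.0102) and PFKP (-0.19 ± 0.06, adjusted p = 0.0378). Of the 14 tested hypoxia genes 5 were higher in kd.2 and 0 lower, with a median of 0.18 beside -0.05 over all tested genes; of the 17 enzymes 3 were higher and 2 lower, with a median of -0.02. The calls of HIF1A, HK1, ALDOC, EGLN3 and SLC2A1 held without each library in turn. That of HK2 was lost without kd.2 replicate 2 (0.051), that of PFKL without kd.1 replicate 2 (0.0935) or kd.2 replicate 1 (0.112). The ANKRD37 call was lost without kd.1 replicate 2 (0.171), kd.2 replicate 1 (0.148) or kd.2 replicate 2 (0.0927). Those of PFKP, BNIP3 and P4HA1 were lost without any 1 of the 4 knockdown libraries (lowest adjusted p = 0.133, 0.122 and 0.0918). Without either control library more members were called, and without kd.1 replicate 2, kd.2 replicate 1 or kd.2 replicate 2 fewer were. Calls over all tested genes moved the same way in each of these fits, so the shifts were not particular to the members.

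Neighbouring genes of the pathway were read from 7 wider lists (102 genes, 76 tested). In kd.1, 15 rose and 14 fell, and in kd.2, 20 rose and 23 fell. The shares over all tested genes, against which these and the following counts are read, were 15.8% and 13.4% in kd.1 and 15.7% and 22.2% in kd.2. The counts dropped in kd.1 without kd.1 replicate 1 or 2 or kd.2 replicate 1, and in kd.2 without kd.2 replicate 1 or 2. Calls over all tested genes dropped in the same fits. Among other glycolytic isozymes and regulators, 2 of 8 tested rose and 1 fell in kd.1, and 1 rose and 4 fell in kd.2. HKDC1, a hexokinase-like gene, had means of 4.37 FPKM in the control, 6.99 in kd.1 and 7.72 in kd.2 (limma adjusted p = 0.0028 and 0.00106). ENO3, the muscle-type enolase, had means of 5.27, 3.64 and 2.89 FPKM (adjusted p = 0.018 and 0.00195), so both minor enolases were lower. PFKFB2, which makes the activator of phosphofructokinase, rose in kd.1 (log2 change 0.37, adjusted p = 0.0219), and its relative PFKFB4 fell in kd.2 (-0.56, adjusted p = 0.00819).

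Other glucose and lactate transporters had 1 of 5 tested rise and 1 fall in each line. SLC2A6 fell in kd.1 (log2 change -1.09, limma adjusted p = 0.00438) and SLC16A7 rose there (0.55, adjusted p = 0.019), each from about 1 FPKM. SLC2A6 reached the level for testing only through 1 control and 1 kd.2 library. BSG, the chaperone of the lactate carriers, fell in kd.2 (-0.27, adjusted p = 0.0256), and SLC2A8 was not called. In pyruvate oxidation 1 of 13 rose and 1 fell in kd.1, and 3 rose and 4 fell in kd.2. DLAT, a core subunit of pyruvate dehydrogenase, rose in each line (0.32 and 0.29, adjusted p = 0.0239 and 0.0262). The subunits of the mitochondrial pyruvate carrier parted in kd.2, with MPC1 up by 0.41 (adjusted p = 0.00442) and MPC2 at -0.47 (0.00671). PDK2, a relative of PDK1, fell in kd.2 (-0.50, adjusted p = 0.00405).

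In the pentose phosphate branch, 2 of 7 rose and 1 fell in kd.1 and 0 rose and 2 fell in kd.2. PGLS fell in kd.2 (log2 change -0.35, limma adjusted p = 0.0163), RPIA fell and RPE rose in kd.1 (-0.41 and 0.25, adjusted p = 0.0106 and 0.0189), and TKT was not called. Of the gluconeogenesis genes 1 of 4 tested rose and 1 fell in kd.1, and 0 rose and 2 fell in kd.2. PCK2, the mitochondrial phosphoenolpyruvate carboxykinase, rose from 12.9 to 22.9 FPKM in kd.1 (adjusted p = 0.000183) and had a mean of 11.9 in kd.2. SLC37A4, the glucose 6-phosphate carrier of the endoplasmic reticulum, fell in each line (-0.34 and -0.23, adjusted p = 0.00783 and 0.0301), and PC and G6PC3 gave adjusted p values of 0.13 and 0.637 in kd.1 and 0.355 and 0.0377 in kd.2.

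Of the HIF pathway regulators 2 of 13 tested rose and 1 fell in kd.1, and 5 rose and 2 fell in kd.2. ARNT2, a partner subunit of HIF alpha, rose from 0.39 to 1.31 and 1.25 FPKM (limma adjusted p = 0.000493 and 0.000617); it reached the level for testing only through the knockdown libraries. VHL rose in each line (log2 change 0.28 and 0.32, adjusted p = 0.0209 and 0.00993). EGLN2, the third of the hydroxylases, fell in kd.2 (-0.62, adjusted p = 0.000443), and RBX1, a subunit of cullin ubiquitin ligases, fell in kd.1 (-0.36, adjusted p = 0.0311). Of other HIF target genes, 6 of 28 tested rose and 8 fell in kd.1, and 10 rose and 9 fell in kd.2, with medians of 0.06 in each line. AK4, a mitochondrial adenylate kinase, had means of 7.78, 14.3 and 11.6 FPKM in control, kd.1 and kd.2 (adjusted p = 0.000144 and 0.00104). STC2, a secreted glycoprotein, had means of 1.46, 3.22 and 2.82 (adjusted p = 0.000313 and 0.000781). The chemokine receptor CXCR4 fell in each line, with means of 22.7, 15.8 and 14.9 (adjusted p = 0.000918 and 0.000506), as did LOXL2, a matrix cross-linking enzyme, with means of 27.3, 16.6 and 17.5 (adjusted p = 0.000775 and 0.00124).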

How the data were processed

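The submitters' processing notes list RSEM 1.2.12, HISAT2 2.0.4 and Bowtie2 2.2.5 as tools, and hg38 and GRCh38.p11 as builds, without roles. The FPKM values were made by the authors, who deposited a single table (21372 features, 6 libraries); the unit was taken from the form of the values (2 decimals, unequal sums), since no label states it. Raw counts were not used, so no counting interval is given. The smallest non-zero values gave a relative depth between 1.0 and 1.031 of control replicate 1. Only values within 1.2-fold of each other entered, which held every ratio near 1.0. Equal depth therefore cannot be inferred from it. Features without a gene name (1869) were left out.

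Genes reaching 1 FPKM in 2 or more libraries entered a limma 3.58.1 fit (R 4.3.3) of log2(FPKM + 0.1), with 1 mean per group over 6 libraries, intensity trend and robust moderation, with 3 residual degrees of freedom per gene. Fold changes are on that scale, which understates those of low genes. With 2 libraries a group no exact permutation test could reach 0.05. The fit was also run on simulated data with the same spread in every group. Here the control duplicates differed most, so that run does not vouch for these calls. Coordinates of genes are from GENCODE 29 (GRCh38), promoters from RefSeq (GRCh38.p14); 3 list symbols were matched through gene IDs. Members and lists were chosen with earlier results of these data known. Genes were named by a rule: ZNF281, all 35 members, and from each wider list up to 4 genes ranked by p for both lines averaged, and genes near 0 that define a list; marker genes are named as a check of the cells. The alternatives tried were another pseudocount, filter, scaling or moderation, a fit of 2 groups, the replicate block and each library left out. Some genes of the wider lists are not reported here by name.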

Additional observations from a re-analysis of the deposited data

Results flagged for a closer look

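For 11 of the 34 tested genes the change against control differed between the lines, by limma's test of kd.2 against kd.1 at an adjusted p under 0.05. The log2 difference, kd.2 minus kd.1, was 0.81 for HIF1A, 0.70 for HK1, 0.59 for HK2, 0.59 for ALDOC, 0.54 for EGLN3, 0.52 for ANKRD37, 0.22 for P4HA1 and 0.21 for BNIP3. It was -0.38 for PFKL, -0.37 for SLC2A1 and -0.19 for PFKP. Both lines were made against ZNF281, which fell to 4.53 ± 0.25 FPKM in kd.1 and 4.42 ± 0.07 in kd.2 (SD, n = 2). A line effect and an effect of the shRNA sequence cannot be told apart, since each shRNA was used in 1 line.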

How the results depend on the processing

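Of 51 calls of members over the 4 comparisons, 0 changed sign under 16 alternatives, and 51 remained with either other pseudocount, with quantile normalization and with the replicate block. Of the 85 uncalled values, 14 became calls with quantile normalization, 10 with a common FPKM sum, 11 with only the 2 groups compared, 30 without control replicate 1 and 15 without control replicate 2. A common FPKM sum lost 10 calls, no filter 9, limma without trend and robust moderation 7, and equal medians 3. A fit of only the 2 groups compared lost 6 and raised the count for kd.2 against kd.1 from 11 to 22 (wider lists 26 to 41). Over all tested genes the calls of that comparison rose too, from 1289 higher and 2207 lower to 2216 and 3301. Leaving out a knockdown library lost calls in each comparison, among the members and over all tested genes alike. Over left-out libraries, member counts ranged from 6 to 19 in kd.1, 8 to 19 in kd.2, 6 to 22 for kd.2 against kd.1 and 9 to 20 for the mean; wider-list counts ranged from 14 to 42, 16 to 57, 12 to 41 and 20 to 53. The difference of enzyme and hypoxia medians ranged from 0.0577 to 0.199, -0.0336 to 0.0585, -0.239 to -0.172 and 0.0053 to 0.0646 in the same order. With quantile normalization it was 0.189, 0.092, -0.138 and 0.15, against 0.14, 0.06, -0.19 and 0.03 as reported. For kd.2 against kd.1 it was -0.17 with no filter and also -0.17 without HIF1A, and for the mean it was 0.10 with SLC2A1, SLC16A3 and PDK1 counted as enzymes. The cause of these shifts was not tested. Same-numbered libraries deviated together with correlations of 0.022 (control and kd.1), -0.087 (control and kd.2) and 0.183 (kd.1 and kd.2). With the replicate block the counts stayed at 13, 13, 11 and 14. The labels do not say whether same-numbered libraries were made together, so the pairing behind this block is unknown. Depth is unknown, which limits what can be said of CA12, CA9 and ANKRD37.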
